A study of Rattus norvegicus with 8 samples.

Results

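The blood-nerve barrier genes described here are 8 genes for junctions and transport at barrier vessels: Cldn5, Cldn1, Ocln, Tjp1, Slc2a1, Abcb1a, Abcg2 and Mfsd2a. They were looked up by symbol in the deposited gene list of 30560 genes, where 5 of the 8 had a row: Tjp1 (ENSRNOG00000011077), Cldn1 (ENSRNOG00000001926), Slc2a1 (ENSRNOG00000007284), Abcg2 (ENSRNOG00000007041) and Mfsd2a (ENSRNOG00000014008). Cldn5, Ocln and Abcb1a had no row under those symbols and were not analysed here, so nothing below speaks for them. The RNA came from single nuclei of nodose ganglia, which hold the cell bodies of vagal sensory neurons, taken from untreated Long Evans rats aged 8 weeks (18 males and 18 females). Each of 12 pools joined the left or the right ganglia of 6 rats of 1 sex, with 3 pools for each combination of labelled sex and side. Pools are written ML1 to ML3 (male, left), MR1 to MR3 (male, right), FL1 to FL3 (female, left) and FR1 to FR3 (female, right). All rats were naive, and the labels set the groups apart by sex and side only. Left and right pools of a sex share animals, since 18 rats of each sex gave the 6 ganglia of each of 3 left and 3 right pools.

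Vessels of peripheral nerve and ganglia carry a barrier built from tight junctions between endothelial cells, from carriers that let nutrients through and from pumps that return drugs and toxins to the blood. Around nerve bundles, the perineurium forms a further layer with tight junctions of its own. Vessels inside sensory ganglia are known as leakier than those of the nerve trunk. Tjp1 encodes ZO-1, a scaffold that ties junction strands to actin. Cldn1 encodes claudin-1, a strand protein known from epithelia and perineurium. Slc2a1 encodes the glucose carrier GLUT1, Mfsd2a a carrier of lysophospholipids that bear docosahexaenoic acid, and Abcg2 the efflux pump BCRP.

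The 36738 nuclei kept held 139954192 unique transcript counts (UMIs), with a median of 2680 per nucleus and 7139364 to 19456287 per pool. Nuclei were clustered without the 8 genes and without a wider list of barrier genes, and clusters were named from fixed marker lists, so that levels of the barrier genes did not shape the classes. The classes used were 937 endothelial-like, 261 mural-like, 4901 satellite glia-like, 1507 myelinating Schwann-like, 360 fibroblast-like, 647 skeletal muscle-like and 27092 neuron-like nuclei, written from here by the class name alone. Endothelial nuclei numbered 27 to 170 per pool and mural nuclei 10 to 45. Y-linked transcripts went against the sex label of 2 pools, at 2.88 CPM in ML1 and 88.65 CPM in FL1, and labels were kept as given. Barcodes without their sublibrary part recurred for 3808 nuclei, and no complete barcode was repeated.

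The endothelial and mural class names were checked against their markers. Of 15 endothelial markers 13 had a row, none was at 0 in endothelial nuclei, and their summed level was 3174 UMIs of the list per 1e6 UMIs of the class (CPM, from here on; 2802 to 5406 over the pools). At least 1 of these markers was counted in 894 of 937 endothelial nuclei (95.4%, exact binomial interval 93.9 to 96.7% at the 95% level). Mural nuclei did not lack endothelial transcripts: the same markers summed to 4958 CPM there, 156% of the endothelial level, and the 11 mural markers summed to 8049 CPM in mural and 1293 CPM in endothelial nuclei. How far nuclei of the 2 classes are mixed was not tested, and each endothelial-mural value below stands beside these sums. Endothelial nuclei also held transcripts of other classes. Over the pools, neuron markers summed to 4031 to 7543 CPM there and myelinating Schwann markers to 1343 to 2635 CPM. The part of free RNA or mixed nuclei in these sums was not tested. In neurons the endothelial markers summed to 114 CPM, 3.58% of their endothelial level, and in satellite glia to 173 CPM, 5.45%. Those shares serve as a rough yardstick for transcripts of free RNA, which they may overstate. Vwf, 1 of the markers, was among the leading genes of a neuron cluster (n7), at 106 CPM. Single markers had a median share of 1.93% in neurons and 5.05% in satellite glia, with Podxl highest at 10.6% and 15.7%.

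The 250 bases before the annotated start are shown for 3 genes that the results below turn on, Abcg2 and Slc2a1 in the vessels and Cldn1 in a small cluster outside them. Sequences are from RefSeq (build GRCr8, which differs from the mRatBN7.2 build named in the submitters' processing notes), printed 5′ to 3′ on the gene's own strand, with capitals for the GC box GGGCGG or its reverse complement CCGCCC. Abcg2 lies at chr4:89075224-89075473, Slc2a1 at chr5:138002272-138002521 and Cldn1 at chr11:87926126-87926375, all on the plus strand.
Abcg2: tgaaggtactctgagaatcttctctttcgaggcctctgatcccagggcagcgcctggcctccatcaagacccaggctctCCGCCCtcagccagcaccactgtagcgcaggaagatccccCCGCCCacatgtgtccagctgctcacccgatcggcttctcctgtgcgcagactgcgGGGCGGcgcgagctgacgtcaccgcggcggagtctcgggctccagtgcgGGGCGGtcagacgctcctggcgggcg
Slc2a1: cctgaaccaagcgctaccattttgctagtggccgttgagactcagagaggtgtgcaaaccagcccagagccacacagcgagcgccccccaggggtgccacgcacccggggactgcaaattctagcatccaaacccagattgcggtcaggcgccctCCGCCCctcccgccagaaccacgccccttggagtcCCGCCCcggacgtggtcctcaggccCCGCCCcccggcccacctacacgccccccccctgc
Cldn1: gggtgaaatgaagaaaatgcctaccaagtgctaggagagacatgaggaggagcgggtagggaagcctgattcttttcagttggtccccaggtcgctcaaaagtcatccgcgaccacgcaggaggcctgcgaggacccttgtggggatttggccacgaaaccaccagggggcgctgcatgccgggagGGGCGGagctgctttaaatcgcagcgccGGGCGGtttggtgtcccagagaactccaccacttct
The GC box occurred 4 times before Abcg2, 3 times before Slc2a1 and 2 times before Cldn1, and 30.5% of 33469 promoter windows of this length held at least 1. GC content was 67.2%, 68.4% and 59.2% in that order, against a median of 51.2% over all windows. The ETS core CGGAAG, present in 13.9% of windows, and the LEF core CTTTGA, also in 13.9%, were searched on both strands and matched none of the 3 windows. Because neither core matched, no overlap between motifs arose. The window before Tjp1, not printed, differed: it held no GC box and 1 LEF core, at a GC content of 30.4%. Mfsd2a had no entry in the promoter table.

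Abcg2 was higher in endothelial nuclei than in glia and neurons in every pool. Its level in endothelial nuclei was 631 ± 99.5 CPM (mean ± SD, n = 12 pools), with a lowest pool of 465, a median of 616 and a highest of 840. In satellite glia the pools ran from 18.7 to 38.8 CPM, in myelinating Schwann nuclei from 0 to 48.6 and in neurons from 7.16 to 11.6. No endothelial pool overlapped any pool of these 3 classes, and all of its pools were higher. Endothelial nuclei held 46.4% of all Abcg2 UMIs while making up 2.55% of the nuclei. The share of endothelial nuclei with an Abcg2 UMI was 56.9% (exact binomial interval 53.6 to 60.1%), against 3.27% of neurons, which had a median of 3043 UMIs per nucleus where endothelial nuclei had 1816. Thinned to 1000 UMIs per nucleus, which left out 101 endothelial and 1010 neuronal nuclei, the shares were 39.95% and 0.951%. Abcg2 in neurons was at 1.48% and in satellite glia at 4.70% of its endothelial level, in both below the shares of the summed endothelial markers. By pool, it lay above the share of that sum in 0 of 12 pools for neurons and in 5 of 12 for satellite glia, and in both classes above the shares of 5 of the 13 single markers.

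Slc2a1 was high in both vessel classes. Endothelial pools ranged from 165 to 498 CPM around a median of 266 (mean 281 ± 101, SD, n = 12), and mural pools from 163 to 663 CPM around a median of 377. Satellite glia ran from 26.6 to 40.3 CPM, myelinating Schwann nuclei from 5.96 to 41.9 and neurons from 12.5 to 19.9. The vessel pools lay above every glial and neuronal pool, and the fibroblast class sat between them at 88.6 ± 45.7 CPM (SD, n = 12), overlapping the endothelial pools only at their edge. A Slc2a1 UMI was present in 39.8% of endothelial nuclei (36.7 to 43.0%) and in 6.18% of skeletal muscle nuclei, whose median was 1866 UMIs. Thinned to 1000 UMIs, the shares were 23.2% and 1.71%. In satellite glia Slc2a1 stood at 14.4% of its endothelial level, above the share of the summed endothelial markers in 12 of 12 pools and above that of 12 of the 13 single markers. In neurons it stood at 6.58%, again above the share of the marker sum in 12 of 12 pools, and above 11 of the 13 markers.

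Mfsd2a showed the same vessel pattern with fewer counts. Its endothelial level was 104 ± 17.9 CPM (SD, n = 12), from 74.1 through a median of 101 to 133. Satellite glia ranged from 17.9 to 28.0 CPM, myelinating Schwann nuclei from 5.81 to 18.2 and neurons from 2.76 to 6.14. Endothelial pools overlapped none of these, whereas mural pools (53.5 to 176 CPM) covered the whole endothelial range. Satellite glia held 30.1% of all Mfsd2a UMIs, more than the 22.1% held by endothelial nuclei, with 4901 nuclei against 937. Their level was 21.9% of the endothelial one, above the share of each of the 13 single endothelial markers, of which Podxl was highest at 15.7%. An Mfsd2a UMI was present in 7.12% of satellite glia and 23.6% of endothelial nuclei, or 2.10% and 12.8% after thinning to 1000 UMIs.

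Tjp1 was found in every class. Endothelial pools ranged from 442 to 659 CPM (mean 503 ± 67.2, SD, n = 12), mural pools from 481 to 1053 (796 ± 144) and neurons from 280.5 to 332 (311 ± 14.5). Satellite glia lay lowest of the glia at 267 ± 20.8 CPM, and myelinating Schwann nuclei at 436 ± 44.5 CPM overlapped the endothelial range. Neurons held 78.7% of its UMIs. A Tjp1 UMI was counted in 66.1% of endothelial nuclei and 60.8% of neurons, and thinning to 1000 UMIs moved these to 42.3% and 27.3%. ZO-1 also sits at adherens and gap junctions. Whether that bears on the spread of its transcript over the classes was not tested.

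Cldn1 was near the counting limit in all large classes. Only 295 UMIs were counted in the whole data set, of which 10 fell in endothelial nuclei, a mean of 4.80 ± 7.21 CPM (SD, n = 12) with 6 of 12 pools at 0. A Cldn1 UMI was present in 1.07% of endothelial nuclei (0.513 to 1.95%), in 1.08% of satellite glia and in 1.08% of skeletal muscle nuclei. The endothelial share did not stand above those of satellite glia and skeletal muscle, the latter from 7 UMIs of which 6 came from FR2. It was above the 0.524% of neurons (0.442 to 0.617%), with overlapping intervals. Thinned to 1000 UMIs, the shares were 0.359% of endothelial nuclei, from 3 nuclei, and 0.153% of neurons. Fibroblast nuclei were higher at 58.2 ± 55.9 CPM (SD, n = 12), from 0 in 2 pools to 175, and 7.5% of them held a UMI (5.00 to 10.7%). Of the 37 Cldn1 UMIs in this class, 26 fell in 1 cluster of 54 nuclei (s9, described below), 11 in cluster s0 and 0 in cluster s5.

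**Figure D1:**
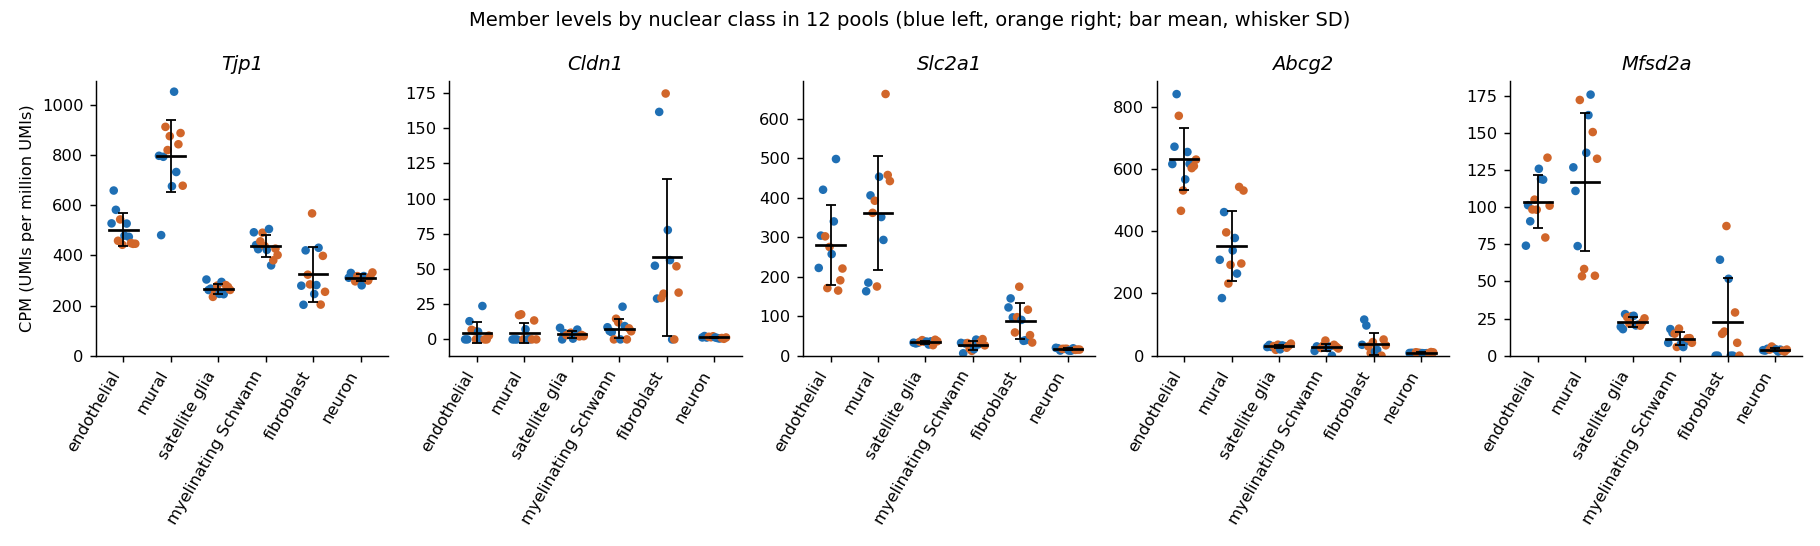
Level of each gene in CPM (vertical axis, linear, a separate scale for each gene) in 6 nuclear classes (horizontal axis). Each point is 1 of 12 pools, blue for left and orange for right ganglia, the bar is the mean and the whisker the SD. Abcg2 pools of endothelial nuclei (465 to 840 CPM) lie above all glial and neuronal pools, Tjp1 is spread over all classes, and Cldn1 leaves the bottom of its scale mainly in the fibroblast class.

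The question whether these genes mark vessels was put to a test with UMIs summed per pool and class (edgeR quasi-likelihood test with a term for the pool, Benjamini-Hochberg adjustment over all genes tested, calls at an adjusted p under 0.05). Against satellite glia, 4 of 4 tested members were higher in endothelial nuclei, where 22.4% of all 7768 genes tested were called higher. Abcg2 was 21.2-fold higher (log2 fold change 4.41, SE 0.078), Slc2a1 7.08-fold (2.82, SE 0.11), Mfsd2a 4.50-fold (2.17, SE 0.12) and Tjp1 1.86-fold (0.89, SE 0.062). The median log2 fold change over all genes tested was -0.0095. Adjusted p-values from edgeR were 7.65e-58 for Abcg2 and 1.87e-21 for Tjp1, the extremes of the 4, and all were higher in 12 of 12 pools. Cldn1 did not pass the filter on low counts in any contrast between classes.

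Against neurons, 4 of 4 tested members were again higher, beside 25.6% of 11876 genes. The differences were 57.0-fold for Abcg2 (log2 5.83, SE 0.081), 21.9-fold for Mfsd2a (4.45, SE 0.16), 13.6-fold for Slc2a1 (3.77, SE 0.11) and 1.36-fold for Tjp1 (0.44, SE 0.067). Against myelinating Schwann nuclei, 3 of 4 were called, beside 26.8% of 4766 genes. These 3 did not pass the count filter in the fits of myelinating Schwann nuclei alone. They entered this contrast through the endothelial pools, so a call as higher was close to fixed and the count adds no support. Abcg2 was 21.9-fold (log2 4.45, SE 0.12), Mfsd2a 8.69-fold (3.12, SE 0.19) and Slc2a1 7.97-fold higher (3.00, SE 0.15). Tjp1 differed by a log2 fold change of 0.085 (SE 0.072, edgeR adjusted p = 0.343) and was not called. The 3 transport genes thus set endothelial nuclei apart from satellite glia and neurons by larger factors than the junction scaffold did. The contrast with myelinating Schwann nuclei is left out of that statement, for the reason given above.

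The contrast with mural nuclei went both ways. It covered 1823 genes, of which 29.4% were called higher and 26.7% lower in endothelial nuclei, and 3 members passed the filter. Abcg2 was 1.86-fold higher in endothelial nuclei (log2 0.90, SE 0.11, edgeR adjusted p = 4.92e-10), in 12 of 12 pools. Tjp1 was lower by 0.59 on the log2 scale (log2 fold change -0.59, SE 0.10, edgeR adjusted p = 7.68e-07), with endothelial nuclei above mural nuclei in only 1 of 12 pools. Slc2a1 had a log2 fold change of -0.48 (SE 0.15, edgeR adjusted p = 0.00465), with 5 of 12 pools in the other direction, and this call did not hold under other clusterings: it was 0.082 at Leiden resolution 0.5, 0.12 with the members among the clustering genes and 0.19 without the nuclei of highest doublet score. Abcg2 and Tjp1 kept their direction and call in all 20 alternatives. The size for Abcg2 ran from 0.80 to 1.89 on the log2 scale, with 1.56 when the mural cluster led by an endothelial marker was left out, 1.67 at Leiden resolution 0.5, 1.53 with members among the clustering genes and 1.89 without the nuclei of highest doublet score. Since the endothelial markers themselves were at 156% of their endothelial level in mural nuclei, the part of mixed nuclei in this contrast was not tested. Mfsd2a did not pass the filter here; it averaged 117 ± 46.5 CPM in mural nuclei (SD, n = 12).

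**Figure D2:**
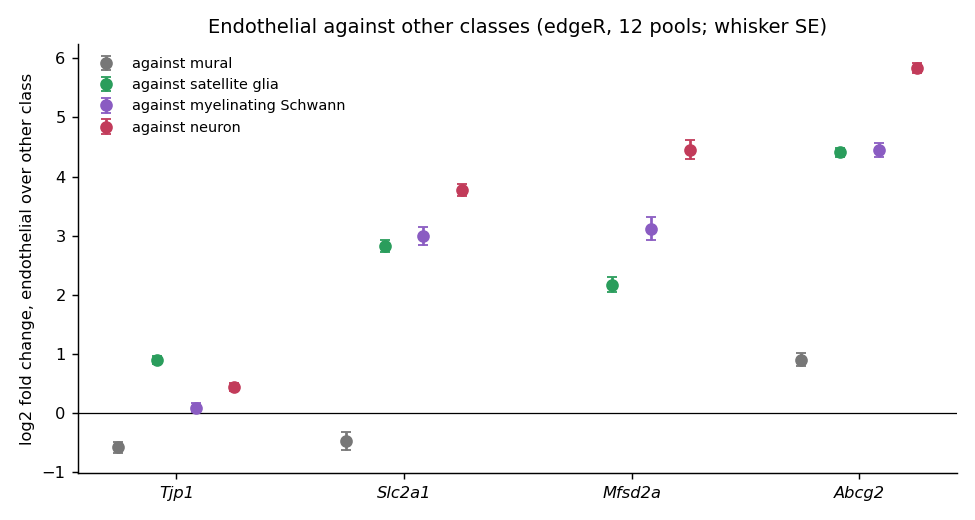
Fitted log2 fold change (vertical axis) of endothelial nuclei over 4 other classes for the members that passed the count filter, with SE as whiskers (often smaller than the point) and 12 pools in every fit. Abcg2 against neurons is highest at 5.83, Tjp1 stays below 0.90 in all contrasts, and the grey points against mural nuclei lie on both sides of 0.

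**Figure D3:**
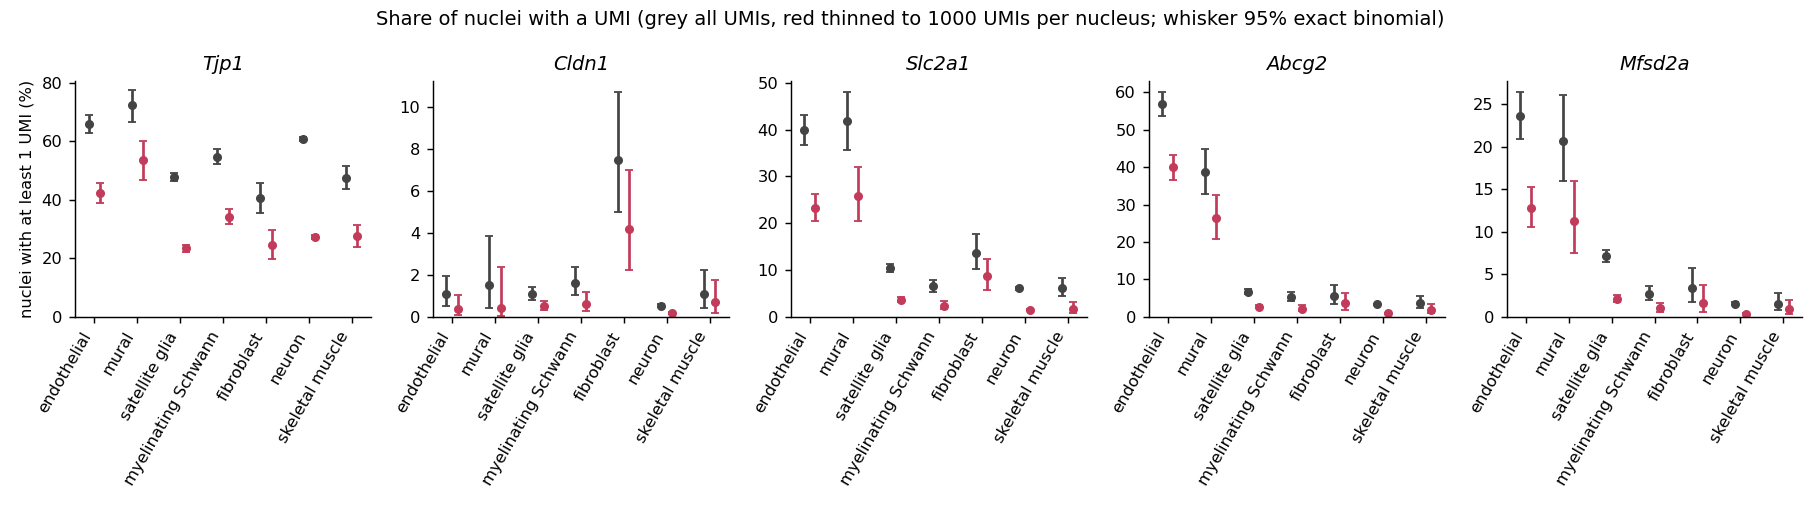
Share of nuclei with at least 1 UMI in percent (vertical axis) in 7 classes (horizontal axis), from all UMIs in grey and after thinning every nucleus to 1000 UMIs in red, with exact binomial intervals at the 95% level. Thinning lowers all shares, from 56.9 to 39.95% for Abcg2 in endothelial nuclei, and leaves the vessel classes above glia and neurons for Slc2a1, Abcg2 and Mfsd2a.

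Within the vessels the members varied widely between the 8 endothelial clusters, given here as CPM of the cluster with exact Poisson intervals for counting error at the 95% level. Abcg2 was highest in a cluster of 193 nuclei (v0), at 1599 CPM (1471 to 1735), and lowest in a cluster of 55 nuclei with Vwf, Pkhd1l1 and Aqp1 among its leading genes (v9), at 108 CPM (53.7 to 193). Slc2a1 ran from 723 CPM (638 to 816) in v0 to 29.3 CPM (6.05 to 85.8, from 3 UMIs) in v9. Mfsd2a ran from 281 CPM (229 to 341) in v0 to 9.78 CPM (0.248 to 54.5, from 1 UMI) in v9. The intervals of v0 and v9 did not overlap for any of the 3 transport genes. These are the highest and lowest of the 8 clusters, a choice the intervals do not allow for. The spread between pools within clusters was not tested. For Tjp1 the v9 cluster was unremarkable at 509 CPM (380 to 667), near the median of 504 CPM over the 8 clusters.

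The low transport genes of v9 did not go with few endothelial transcripts: its 13 endothelial markers summed to 10360.5 CPM, the highest of the 8 clusters, against 6778 CPM in v0. Its venous markers summed to 2612 CPM, where the other 7 endothelial clusters had 218 to 828. Most of the v9 sum was Vwf, at 1947 CPM, where v0 had 464 CPM. Vwf was also among the endothelial markers and the leading genes of v9, so it is not evidence apart from these. Whether the venous sum stands out without Vwf was not tested. Plvap, the diaphragm protein of fenestrated and venous endothelium, was at 264 CPM in v9, where v0 had 5.56 CPM. Nuclei of v9 came from 12 of 12 pools. The cluster with the highest Tjp1 was v6, 77 nuclei with Mecom, Adgrl4, Eln and Pecam1 among their leading genes, at 1164 CPM (964 to 1393). Its arterial markers summed to 597 CPM against 76.4 to 270 in the other 7, and its Abcg2 (1389 CPM) and Slc2a1 (430 CPM) were also high. The clusters with the lowest Tjp1, v3 (332 CPM) and v7 (340 CPM), had median depths of 4438 and 4246 UMIs per nucleus and endothelial marker sums of only 1442 and 1274 CPM. Members and endothelial markers were low together there, and the part of mixed nuclei in that was not tested.

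Among mural clusters, the one led by Myh11 and Acta2, contractile genes of smooth muscle (v2, 147 nuclei), held 158 CPM of Abcg2 (121 to 204) and 230 CPM of Slc2a1 (184 to 283). A cluster led by Prrx1 and Rgs5, a pericyte gene (v10, 53 nuclei), held 380.4 CPM of Abcg2 (251 to 553) and 465 CPM of Slc2a1 (320.01 to 653). The remaining cluster (v8, 61 nuclei) had the endothelial marker Adgrl4 as its leading gene and 722 CPM of Abcg2, with an endothelial marker sum of 6283 CPM. Abcg2, Slc2a1 and Mfsd2a kept the same order over the 3 clusters, with v2 lowest and v8 highest for each gene.

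Outside the vessels, Cldn1 was highest by CPM in 1 small cluster of the fibroblast class (s9, 54 nuclei from 12 pools). Cldn1 was not among the clustering genes, but s9 was picked for its Cldn1 level among clusters of at least 50 nuclei. Its contrast with other nuclei follows in part from that choice. Of all Cldn1 UMIs s9 held 8.81%, beside 50.5% in neurons and 19.0% in satellite glia. Cldn1 stood at 249.6 CPM in s9 (163 to 366), and 16 of 54 nuclei held a UMI (29.6%, 18.0 to 43.6%), in 10 of the 12 pools. Among the other 36684 nuclei 257 held one (0.701%, 0.618 to 0.791%). Slc2a1 was 269 CPM in s9 (179 to 388), level with the endothelial mean, while Abcg2 (38.4 CPM) and Mfsd2a (19.2 CPM) were not at vessel levels. Itgb4, an integrin of perineurial cells and of Schwann cells, reached 3302 CPM in s9 against 836 CPM in the largest fibroblast cluster. The perineurial markers Lypd2 and Msln were at 0 in the whole fibroblast class, so the perineurial list rests on Itgb4 and the cluster keeps its number. Myelinating Schwann markers summed to 5558 CPM in s9, and their part in these levels was not tested. Its leading genes were Svep1, Slc16a11, Ebf2, Fn1 and Cldn1.

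**Figure D4:**
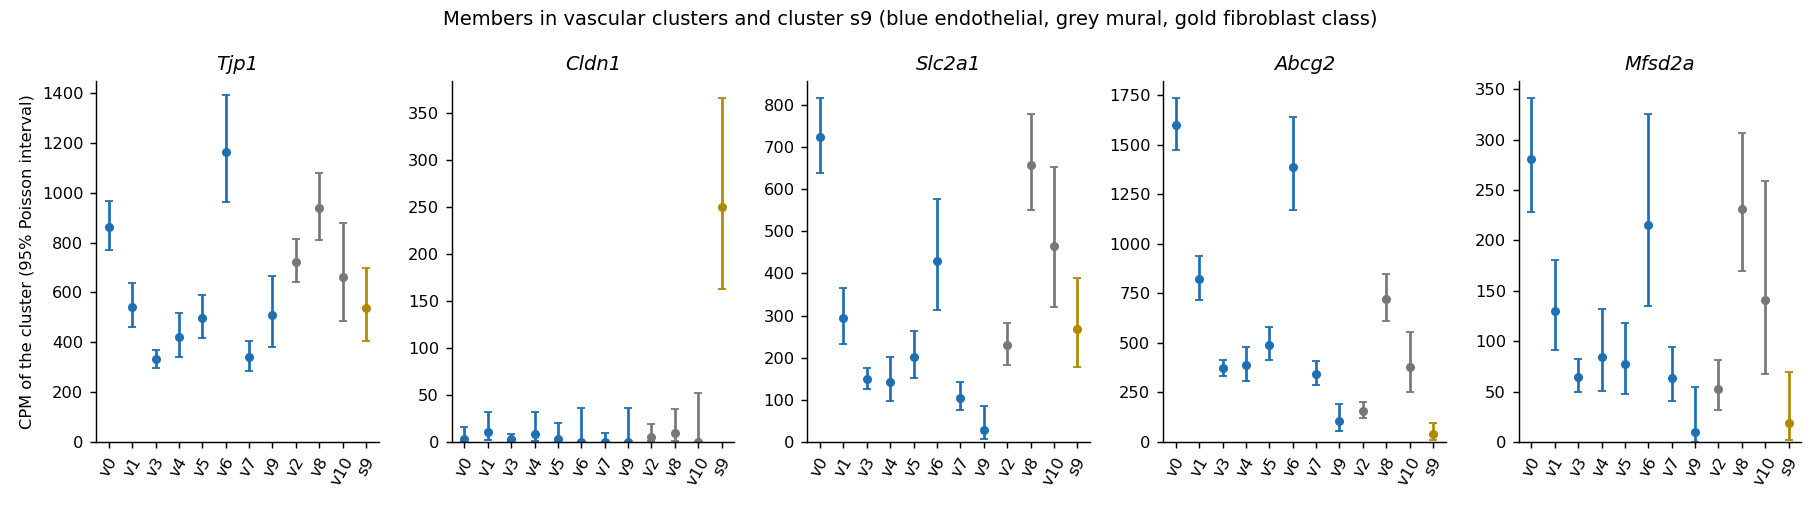
CPM of each gene (vertical axis, linear, a separate scale for each) in the 8 endothelial clusters (blue), 3 mural clusters (grey) and cluster s9 of the fibroblast class (gold), with exact Poisson intervals at the 95% level. The v9 cluster is lowest of the endothelial clusters for Slc2a1, Abcg2 and Mfsd2a but not for Tjp1, and Cldn1 stands out in s9 alone.

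Neuron clusters differed too. Over 32 neuron clusters Tjp1 ranged from 91.6 CPM (71.7 to 115) in a cluster led by Spp1, Kcna1 and Nefh (n28), genes of large myelinated neurons, to 447 CPM (432 to 462) in one led by Gdpd4, Itgae and Gpr65 (n2), which is within the range of the endothelial pools. Slc2a1 had a median of 16.8 CPM and was highest, at 48.1 CPM (39.9 to 57.4), in a cluster led by Tac1, Chrm3 and Calb2 (n18). Abcg2 had a median of 9.10 CPM and ran from 2.78 CPM (1.12 to 5.73) in n18 to 31.4 CPM (21.7 to 43.8) in a cluster led by Pappa2 and Nox4 (n27), where endothelial markers summed to 113 CPM. Mfsd2a had a median of 2.53 CPM and reached 19.5 CPM (15.3 to 24.5) in a cluster led by Th (n21). The counting intervals at the maxima of Slc2a1, Abcg2 and Mfsd2a lay above the neuron medians. Each maximum was picked as the highest of 32 clusters, which these intervals do not allow for, and the spread between pools was not tested. Endothelial markers summed to 180 CPM in n18 and 86.1 CPM in n21, beside 114 CPM in all neurons, and satellite glia markers to 110 CPM in n18 but 1388 CPM in n21. The part of satellite glia transcripts in the Mfsd2a of n21 was not tested. In satellite glia, Mfsd2a ran from 18.6 CPM in cluster g3 to 36.0 CPM in cluster g0, and Slc2a1 from 30.8 to 41.0 CPM.

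The genes whose pattern over the 63 clusters of at least 50 nuclei was most like each member were named by Pearson correlation of log2(CPM + 5), among 12155 genes; clusters share pools and depth, so these are descriptions. Abcg2 went with Cyyr1 (r = 0.95), Slco1a4 (0.95) and Nr5a2 (0.93). Mfsd2a went with Alpl (r = 0.91), Pdgfd (0.90) and Slco1a4 (0.90), and Slc2a1 with Pltp (0.90), Slco1a4 (0.88) and Alpl (0.85). Slco1a4, an organic anion carrier of brain endothelium, was on the list of all 3 transport genes, but with a pseudocount of 1 CPM only on that of Abcg2. Tjp1 went with Rb1 (0.85), Fcho2 (0.85) and Strn3 (0.84), none of which was shared with the transport genes. For Cldn1 the list was Wdr97 (r = 0.78), Slc6a13 (0.77) and ENSRNOG00000069674 (0.74).

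A wider list of 73 further barrier genes set the members in context. Of these, 3 had no row under their symbol and were not analysed here, 2 symbols had 2 rows each, and 72 rows were used. Tight junction genes were mostly higher in endothelial nuclei than in satellite glia (5 of 5 tested) and neurons (7 of 8), beside 22.4% and 25.6% of all genes. Median log2 fold changes were 1.39 and 1.58, beside -0.0095 and -0.052 for all genes. Against myelinating Schwann nuclei, 2 of 4 were higher and 1 lower (26.8% and 25.1% of all genes). Jam2, a junctional adhesion molecule, was at 228 ± 57.4 CPM (SD, n = 12) and 4.50 higher on the log2 scale than in neurons. Cgnl1 (paracingulin) was at 240.5 ± 59.5 CPM and Jam3 at 107 ± 19.0. Cgnl1 was lower in endothelial than in mural nuclei, by a log2 fold change of -1.09.

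Carriers were mixed, with 7 of 12 higher and 2 lower than in satellite glia (22.4% and 24.3% of all genes). Against neurons 6 of 12 were higher and 5 lower (25.6% and 30.1%), and against myelinating Schwann nuclei 6 of 7 higher and 1 lower (26.8% and 25.1%). Slco1a4 led at 499.7 ± 78.7 CPM (SD, n = 12) and was 5.70 higher on the log2 scale than in neurons. Slc7a1, a cationic amino acid carrier, was at 219.6 ± 37.0 CPM, and Insr, the insulin receptor, at 215 ± 52.5. Lrp1, a receptor that clears lipoproteins and amyloid, was slightly lower in endothelial nuclei than in neurons, with a log2 fold change of -0.26. Among efflux pumps, 2 rows carry the symbol Abcb1b. ENSRNOG00000008012 held 554 ± 128 CPM in endothelial nuclei (SD, n = 12) and was higher than in satellite glia (log2 2.37), while ENSRNOG00000066042 held 0.767 ± 1.96 CPM. Abcb1a and Abcb1b are near-identical paralogs, reads may be split between them, and the values are uncertain for that reason. Abcc5 (243 ± 43.5 CPM), Abca1 (219 ± 34.6) and Abcc4 (203 ± 40.4) were the next pumps by endothelial level. Abcc5 was lower in endothelial nuclei than in neurons (log2 -0.63), and Abca1 lower than in satellite glia (log2 -0.30).

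Of the vesicle and fenestra genes, 2 of 2 tested against satellite glia and 4 of 4 against neurons were higher in endothelial nuclei (22.4% and 25.6% of all genes). Plvap did not pass the count filter in neurons alone, so its call against neurons was close to fixed. Cav1, the coat protein of caveolae, was at 186 ± 73.8 CPM and 4.29 higher on the log2 scale than in satellite glia, and Plvap at 20.3 ± 10.2 CPM (SD, n = 12). Cavin2 (67.8 ± 29.8 CPM) and Cav2 (32.6 ± 12.05 CPM) were the others with rows. Of the Wnt pathway and barrier regulators, 9 of 11 were higher than in satellite glia (22.4% of all genes) and 13 of 14 higher than in neurons (25.6%), with none lower in either. Against myelinating Schwann nuclei 5 of 9 were higher and 2 lower (26.8% and 25.1%). Lef1, a transcription factor of canonical Wnt signalling, was at 339 ± 84.5 CPM and 4.57 higher on the log2 scale than in satellite glia. Apcdd1, a Wnt target, was at 155 ± 35.0 CPM and 3.6 higher. Ctnnb1 (203 ± 39.2 CPM) and the co-receptor Lrp6 (196 ± 49.9 CPM) were 0.78 and 0.40 higher. Over all 72 rows, 25 of 36 tested were higher and 3 lower than in satellite glia (22.4% and 24.3% of all genes), and 33 of 44 higher and 7 lower than in neurons (25.6% and 30.1%). Against myelinating Schwann nuclei 18 of 26 were higher and 4 lower (26.8% and 25.1%). Some genes in these and the group counts failed the count filter in fits of the other class alone. They entered through endothelial nuclei, so their calls as higher were close to fixed. Against mural nuclei 2 of 16 were higher and 6 lower (29.4% and 26.7%), with a median log2 fold change of -0.054. Slc7a1 (1.40) and Abca1 (1.48) were the 2 higher. Cgnl1, Cav1 (-0.95), Insr (-0.85), Apcdd1 (-0.78), Abcb1b (ENSRNOG00000008012, -0.44) and Abcc4 (-0.33) were the 6 lower.

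The study's own question was left against right and male against female. In edgeR fits with both factors, with right set against left and female-labelled pools against male-labelled ones, no member was called in any of 4 classes. In endothelial nuclei 4 members were tested by side, 0 were called (0.0766% of 5225 genes were), 1 had an unadjusted p under 0.05, and DESeq2 and limma-voom called 0. By labelled sex 0 of 4 were called and 0 had an unadjusted p under 0.05 (background 0%). ML1 and FL1, with Y-linked transcripts against their labels, stayed in the fits by labelled sex. That weakens these tests in every class, so a count of 0 says little about sex. Fits without ML1 and FL1 also called 0 members. In satellite glia 0 of 4 were called by either factor (background 0% by side and 0.0563% by sex), with 0 at an unadjusted p under 0.05. In myelinating Schwann nuclei Tjp1 was the member tested and was not called (background 0.0348% and 0.0174%). In neurons 0 of 5 were called by side (0.105%) and 0 of 5 by sex (0%), with 1 at an unadjusted p under 0.05 in each. DESeq2 and limma-voom called 0 in all of these, and none of the wider list was called by side or sex.

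Slc2a1 in endothelial nuclei was the member closest to a difference by side. The male-labelled left pools had 222 (ML1), 304 and 420.2 CPM and the male-labelled right pools 302, 171 and 275. The female-labelled left pools had 257 (FL1), 340.0 and 498 CPM, and the female-labelled right pools 165, 191 and 221. All 3 female-labelled left pools lay above all 3 right ones, and the male-labelled pools overlapped. Left pools averaged 340.3 ± 103 and right pools 221 ± 56.7 CPM (SD, n = 6 each), and the edgeR log2 fold change was -0.51 (SE 0.16) at an adjusted p of 0.359, which ranged from 0.068 to 0.767 over 21 alternatives. The log2 fold change ran from -0.78 without ML1 and FL1, the pools whose Y-linked transcripts go against their labels, to -0.23 at Leiden resolution 0.5. Other values moved with side in the same nuclei: the endothelial markers summed to 3095 to 5406 CPM in left and 2802 to 3303 CPM in right pools, and the neuron markers to 5836 ± 1053 and 6864 ± 592 CPM (SD, n = 6 each). Satellite glia markers summed to 986 ± 202 CPM in left and 1369 ± 192 CPM in right pools, and mural markers to 1478 ± 270 and 1201 ± 146 CPM (SD, n = 6 each). Their part in the difference was not tested.

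The other members moved less. Tjp1 was 541 ± 69.6 CPM in left and 464 ± 39.2 CPM in right endothelial nuclei (SD, n = 6 each; log2 fold change -0.19, SE 0.11, edgeR adjusted p = 0.745). As for Slc2a1, the female-labelled left pools (479, 527 and 474 CPM) lay above the female-labelled right ones (449, 446 and 447), and the male-labelled left (528, 659 and 582) and right (458, 543 and 442) pools overlapped. Abcg2 was 661 ± 95.2 and 601 ± 103 CPM (-0.11, SE 0.12), and Mfsd2a 105 ± 19.98 and 103 ± 17.4 CPM (0.016, SE 0.18). By labelled sex, Mfsd2a was 94.6 ± 11.2 CPM in male-labelled and 113 ± 19.5 CPM in female-labelled pools (log2 fold change 0.28, SE 0.18). Left and right overlapped over all 12 pools for each of the 3 genes, and so did the labelled sexes for Mfsd2a. The interaction of side and labelled sex called none of 4 members (0.0383% of 5225 genes), with log2 values from -0.41 for Mfsd2a to 0.29 for Abcg2 and none at an unadjusted p under 0.05. In neurons, Abcg2 by side (log2 0.26, SE 0.098, edgeR adjusted p = 0.742) and Cldn1 by labelled sex (-0.78, SE 0.28, edgeR adjusted p = 0.176) were the members with an unadjusted p under 0.05. With 3 pools a group, and sides that share animals in a fit that takes pools as independent, these p-values measure the spread between pools.

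**Figure D5:**
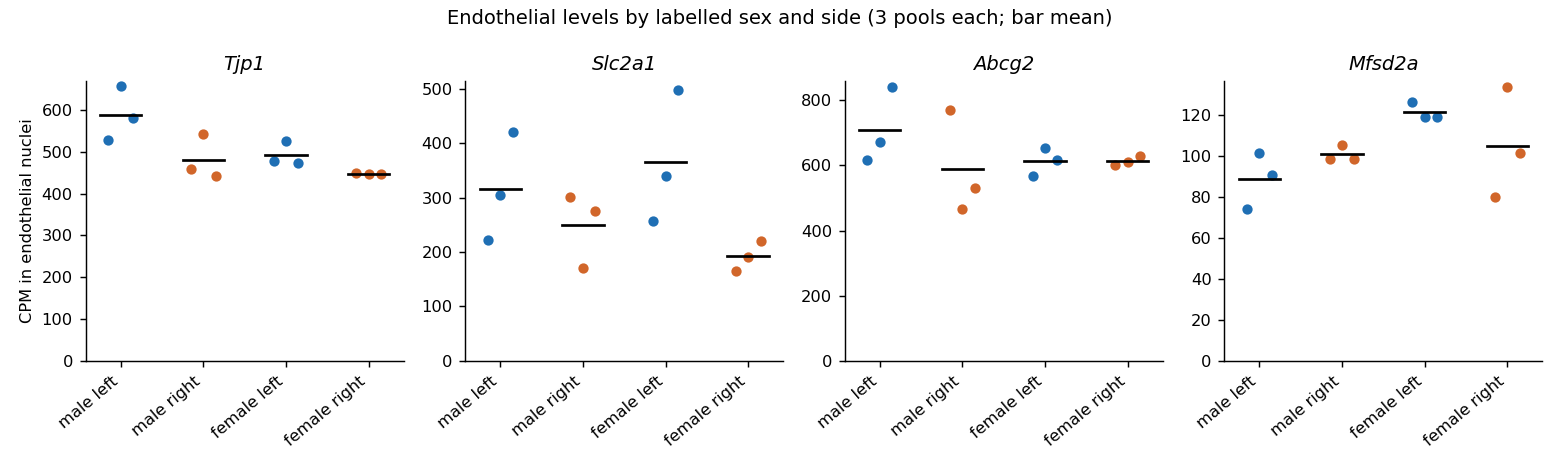
CPM in endothelial nuclei (vertical axis, from 0) of 4 members in the 3 pools of each labelled sex and side (horizontal axis), with blue for left, orange for right and a bar for the mean. Slc2a1 pools of the female-labelled left group (257 to 498 CPM) lie above those of the female-labelled right group (165 to 221), and the groups overlap for Abcg2 and Mfsd2a.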

How the data were processed

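Per the labels' protocols, ganglia were flash-frozen, pooled, fixed and barcoded with Evercode version 2 kits, and sequenced as 8 sublibraries. The authors deposited raw UMI counts per nucleus and gene, without normalisation. The submitters' processing notes name R 4.3.2, Seurat 4.1.3 and build mRatBN7.2; the aligner is not given in the sources used here. Pool names in the deposited nucleus table gave sex, side and replicate.

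The cell filter asked for 300 detected genes or more and a mitochondrial share of UMIs of 5% or less. Scrublet (scanpy 1.11.5) called 2 doublets and so hardly worked. Clustering used leidenalg 0.10.2 at resolution 1, with a further split of vascular and stromal clusters at 2 times that resolution, settled after clusters were seen. A name needed 3 markers at 2-fold (neurons 1.5-fold). UMIs were summed per pool and class and tested with edgeR 4.0.16 (TMM, filterByExpr), with DESeq2 1.42.0 and limma 3.58.1 as alternatives; SE is the log2 fold change over the root of F. In simulated counts for right against left in endothelial nuclei, with 200 of 5225 genes changed, 83% of 2-fold and 99.5% of 4-fold changes were recovered. For endothelial against satellite glia (7768 genes) the shares were 97% and 100%. Intervals cover counting error only. Members and lists were chosen with earlier results of these data known. Named genes were the members, the 4 of each wider group with the highest endothelial CPM, and the 3 most like genes; 1 tight junction gene the rule names is not reported here.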

Additional observations from a re-analysis of the deposited data

Results flagged for a closer look

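Each member was checked in 5 classes for a pool far from the others of its side (6 pools per side, 50 groups in all), and 2 groups had such a pool, where chance gives about 1 in 20. Tjp1 in endothelial nuclei was 543 CPM in MR2, from 181 UMIs in 115 nuclei, while the other 5 right pools had 442 to 458 CPM. Cldn1 in mural nuclei was 7.19 CPM in FL1, which is 1 UMI in 45 nuclei, and the other 5 left pools were at 0.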

How the results depend on the processing

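The counts of members called kept within 1.5 times of their value in all 256 comparisons with an alternative (DESeq2, limma-voom, no count filter, other cluster resolutions, removal of doublet scores, each pool left out, the 2 pools with unexpected Y-linked transcripts left out). Endothelial CPM of every member stayed within 1 SD in all 80. The contrast with mural nuclei lost Slc2a1 under DESeq2 (-0.33, adjusted p = 0.199) and, in edgeR, without the count filter (-0.35, adjusted p = 0.0694), at resolution 2 (-0.27, adjusted p = 0.179) and without the mural cluster led by an endothelial marker, an alternative chosen after seeing the data (-0.11, adjusted p = 0.62). Its sign turned at resolution 0.5 (0.082), without top doublet scores (0.19) and with members among the clustering genes (0.12), and it ran from -0.59 to -0.39 when 1 pool was left out; the cause was not tested. Uncalled values near 0 also turned. Mfsd2a by side was -0.0015 with limma-voom, -0.064 at resolution 2, -0.084 without top doublet scores, -0.12 with members among the clustering genes and -0.018 with the replicate block, and -0.067 to 0.12 with 1 pool left out. Abcg2 by labelled sex was 0.053 at resolution 2 and -0.18 to 0.048 with 1 pool left out. Slc2a1 by labelled sex was 0.094 at resolution 0.5, 0.0079 at resolution 2, 0.016 with members among the clustering genes and -0.28 to 0 with 1 pool left out. Tjp1 over myelinating Schwann nuclei passed the threshold of the edgeR test at resolution 0.5 (0.16, adjusted p = 0.044), without top doublet scores (0.18, adjusted p = 0.0256) and with members among the clustering genes (0.16, adjusted p = 0.0473). The replicate block of same-numbered left and right pools called 0 members; deviations of 6 such pairs correlated from -0.0736 to 0.0655 in endothelial nuclei, so the numbers were not taken to pair the pools. Of the genes most like a member, 1 of 3 was shared at a pseudocount of 1 CPM for Cldn1, Slc2a1 and Mfsd2a. Depth limits Cldn1 in endothelial nuclei, where 10 UMIs were counted.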

Other observations

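Of 937 endothelial nuclei, 116 (12.4%) held a UMI of none of the 5 members, 260 (27.7%) of 1, 282 (30.1%) of 2, 185 (19.7%) of 3, 93 (9.93%) of 4 and 1 of all 5. Without Tjp1, 2 of the other 4 genes were counted in 251 nuclei (26.8%), 3 in 112 (11.95%) and 4 in 1. In neurons the same 4 genes gave 2 in 224 of 27092 nuclei (0.827%) and 3 in 18 (0.0664%).

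Between the 8 sublibraries, which hold nuclei of all pools, the endothelial level of Abcg2 ran from 493.4 to 749 CPM, of Slc2a1 from 181 to 288, of Tjp1 from 429.9 to 569.6 and of Mfsd2a from 77.3 to 144.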
